A study of Mus musculus with 6 samples.

Results

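The class IIa histone deacetylases Hdac4, Hdac5, Hdac7 and Hdac9 and the Mef2 transcription factors Mef2a, Mef2b, Mef2c and Mef2d were examined in RNA-seq libraries of a mouse pre-osteoblast line with and without knockdown of Hdac4. These 8 genes were chosen by symbol out of 53801 genes with a deposited count, and every one of them had a row in all 6 libraries. MC3T3-E1 cells, a line derived from mouse calvaria, had been infected with a lentivirus and selected with 5 μg/ml puromycin for 7 days. The 3 control libraries came from cells carrying a scrambled non-silencing RNA, and the 3 Hdac4-knockdown libraries from cells carrying a short hairpin RNA against Hdac4. Both groups shared the line, the vector with its ZsGreen1 and puromycin resistance genes, the selection and the growth medium, MEM-α with serum and antibiotics. Of 3 hairpins that were designed, the labels name only an Hdac4-shRNA, which was taken as Hdac4-shRNA3 from the paper. The knockdown group thus rests on 1 hairpin. The paper does not say whether its 3 libraries share 1 infected line, and they may. The labels call the libraries of a group independent RNA samples, and the p-values below measure the spread between these samples only.

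Class IIa deacetylases shuttle between the nucleus and the cytoplasm. In the nucleus they bind Mef2 factors at Mef2 target genes and bring in corepressors, since their own deacetylase activity is weak, and kinases that phosphorylate them send them out of the nucleus bound to 14-3-3 proteins. In the skeleton, Hdac4 is known as a brake on chondrocyte hypertrophy that acts on Mef2c and Runx2, and Mef2c is needed for growth plate cartilage to be replaced by bone.

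The target of the hairpin is shown first, beside the scrambled sequence of the control, because the other class IIa genes are related to Hdac4 in sequence. Both are written 5′ to 3′ as sense-strand DNA.
Hdac4-shRNA3 target: gcatgaggcacagttgcatga
scrambled: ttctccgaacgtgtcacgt
The Hdac4 target matched 3 of the 12 annotated Hdac4 transcripts exactly and no transcript of another gene, and the scrambled sequence matched none. In the longest coding transcript of Hdac4 (8100 bases in 27 exons) it covers bases 607 to 627, inside the coding sequence and exon 4, at chr1:92029965-92029985 on the minus strand (GRCm38).

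The best match to this stretch in each of the other class IIa deacetylases is shown next, because these genes are related to Hdac4 in sequence. Each line is a 63-base window of coding sequence, aligned without gaps to the Hdac4 window. The Hdac4 window holds the target in the middle, with 21 bases on either side. Capitals mark bases that differ from Hdac4.
Hdac4: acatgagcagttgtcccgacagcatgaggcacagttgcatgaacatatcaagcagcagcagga
Hdac5: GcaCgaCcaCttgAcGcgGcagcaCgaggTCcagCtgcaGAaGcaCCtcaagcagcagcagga
Hdac9: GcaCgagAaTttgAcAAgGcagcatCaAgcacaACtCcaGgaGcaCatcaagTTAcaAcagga
Hdac7: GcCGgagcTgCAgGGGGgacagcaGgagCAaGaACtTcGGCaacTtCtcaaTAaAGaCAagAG
Over the 63 bases, Hdac5 differed from Hdac4 at 16 positions (74.6% identity), Hdac9 at 20 (68.3%) and Hdac7 at 30 (52.4%). The best window of Mef2a, a gene outside the family, also differed at 30 positions (52.4%). The Hdac7 line is therefore only its closest window and need not be the same stretch of the gene. Within the 21-base target, Hdac5 and Hdac9 each had 6 mismatches. The closest site anywhere in a transcript of Hdac7, Mef2a, Mef2c or Mef2d had 8 mismatches, and that of Mef2b had 9. The 7 bases ttgcatg, which pair with the start of the guide strand if it is the exact complement of the target, occurred 2 times in the longest coding transcript of Hdac4, 1 time in that of Mef2c and in none of the other members. They occurred in 15.7% of the 21877 coding genes searched in the same way.

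Counts on genes ranged from 29096544 to 31053296 per control library and from 29554263 to 31651826 per knockdown library. Levels are given as CPM, the counts scaled to a common library size after TMM normalization. Fold changes come from edgeR's quasi-likelihood test over the 14531 genes with enough counts, with Benjamini-Hochberg adjusted p-values, and a gene was called at an adjusted p below 0.05 with a log2 fold change beyond 0.05 in size. The median log2 fold change over all tested genes was 0.0144. Reads outside annotated genes made up 3.17% to 3.41% of a control library and 4.64% to 5.07% of a knockdown library. The labelled cell type was checked against markers. Of 8 osteoblast markers only Runx2, Col1a1 and Spp1 had at least 10 counts in every library, and Alpl, the alkaline phosphatase of mineralizing cells, had 3 counts or fewer in each. The control libraries also held 1848 to 2152 counts of Myod1, the muscle determination factor, against 258 to 296 in knockdown libraries.

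Of the 8 genes, 7 had enough counts to be tested and 6 of these were called, against 75.1% of all tested genes. Hdac7, Mef2a and Mef2d were called higher in knockdown libraries (38% of all genes were called higher) and Hdac4, Hdac5 and Hdac9 lower (37.1% of all genes were called lower). Mef2c was tested without a call, and Mef2b was too low to test. The 3 knockdown libraries lay wholly outside the 3 control libraries for 5 of the 7 tested genes, against 76.8% of all tested genes. They lay above for Hdac7 and Mef2d (38.8% of all genes) and below for Hdac4, Hdac5 and Hdac9 (38% of all genes). A log2 fold change beyond 0.5 was called for Hdac7 and Hdac9 alone, 2 of 7, against 44.4% of all tested genes. With most genes called, what set the 8 genes apart from each other was the size of the change, which ran from an 8.11-fold lower level of Hdac9 to a 1.58-fold higher level of Hdac7. In such bulk samples, less RNA per cell and fewer cells that carry it cannot be told apart.

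**Figure D1:**
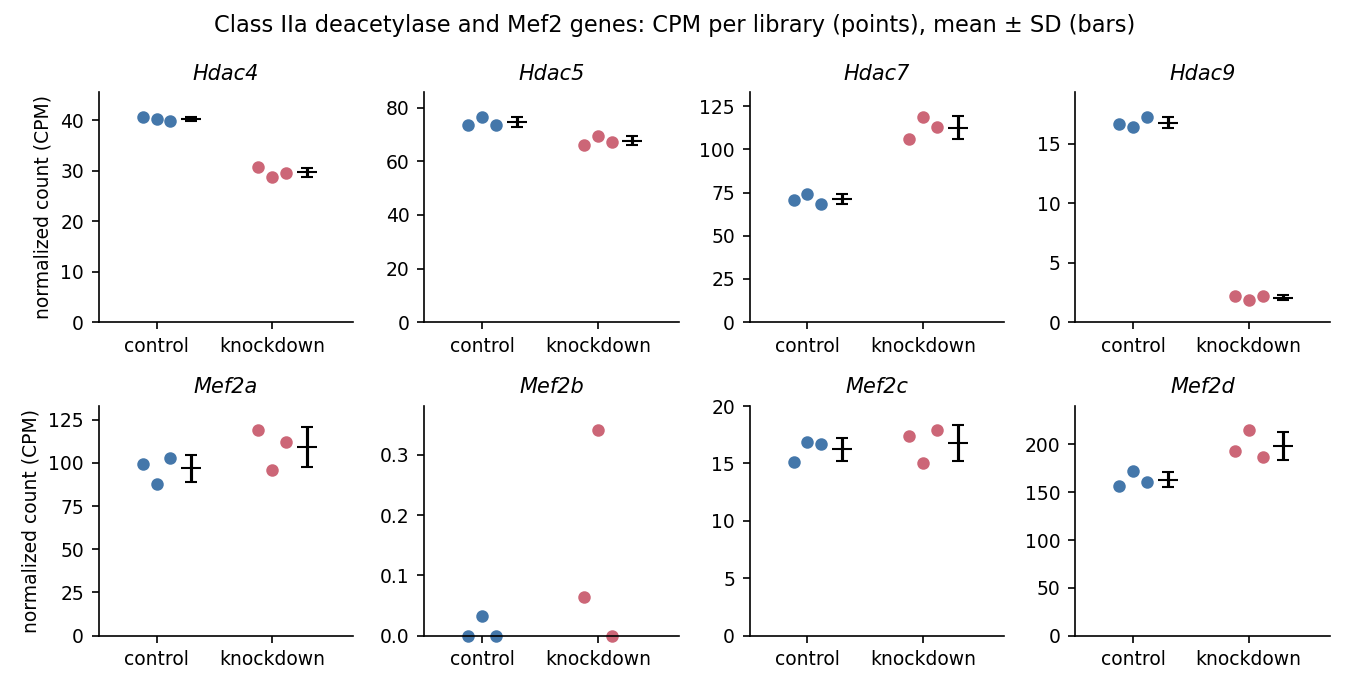
Normalized counts (CPM, linear axes from 0) of the 4 class IIa deacetylase genes and the 4 Mef2 genes, with 1 point per library and the mean ± SD of 3 libraries beside the points (no mean is drawn for Mef2b). Hdac9 fell from 16.4 to 17.3 CPM in control libraries to 1.86 to 2.19 CPM in knockdown libraries, Hdac7 moved the other way, and the groups overlap for Mef2a, Mef2b and Mef2c.

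Hdac4 (ENSMUSG00000026313; chr1:91928779-92195699, minus strand, GRCm38), the gene the hairpin targets, stood at 40.7, 40.2 and 39.9 CPM in control libraries 1 to 3 and at 30.7, 28.8 and 29.5 CPM in knockdown libraries 1 to 3. Every knockdown library lay below every control library, and what remained was 73.6% of the control level. The log2 fold change was -0.44 ± 0.057 (SE), with an adjusted p of 8.98e-07. A two-sided exact permutation test gave p = 0.1, the smallest that 3 libraries against 3 allow, and the same held for the other 4 genes whose groups did not overlap. Ordered by the absolute log2 change, Hdac4 ranked 7445 of the 14531 genes tested, near the middle. Of its 15813 exon bases, 3536 (22.4%) overlap Gm26720, a noncoding gene on the other strand whose count was 0 in every library. Reads over these bases may have been set aside as shared between genes and counted for neither. The level of Hdac4 per length, given below, may then be too low.

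Hdac9 (ENSMUSG00000004698; chr12:34047580-34917095, minus strand), a class IIa deacetylase best known from muscle and immune cells, changed far more than the targeted gene. Control libraries 1 to 3 held 510, 492 and 493 reads and knockdown libraries 67, 60 and 66, or 16.7, 16.4 and 17.3 CPM against 2.17, 1.86 and 2.19 CPM. The groups were widely separated, and the libraries within each group lay close together. The mean went from 16.8 ± 0.441 to 2.07 ± 0.184 CPM (SD, n = 3), to 12.3% of the control level. On the log2 scale the gene fell by 3.02 (SE 0.114), with an adjusted p of 5.26e-15. By size this change ranked 953 among all tested genes, within the first 6.56%. The log2 fold change stayed between -3.06 and -2.93 under all 14 alternatives tried for it. Hdac9 also encodes a known short form without the deacetylase domain, and counts per gene do not separate the forms.

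Hdac7 (ENSMUSG00000022475; chr15:97792664-97844502, minus strand), known for its role in endothelium and thymocytes, was the class IIa gene that rose. It measured 70.7, 74.4 and 68.5 CPM in control libraries and 106, 119 and 113 CPM in knockdown libraries. All knockdown values were above all control values. The mean rose from 71.2 ± 2.99 to 113 ± 6.37 CPM (SD, n = 3), 1.58 times the control level (log2 fold change 0.66, SE 0.0508, adjusted p = 4.4e-10). Only 29 of its exon bases are shared with a neighbor, Slc48a1.

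Hdac5 (ENSMUSG00000008855; chr11:102194432-102230166, minus strand), which acts alongside Hdac4 in heart and bone, differed little. Its control libraries gave 73.7, 76.7 and 73.5 CPM and its knockdown libraries 66.3, 69.6 and 67.2 CPM. The knockdown values were the lower ones without overlap, but the gap between the nearest libraries of the groups was of the size of the spread within a group. The mean was 74.7 ± 1.8 against 67.7 ± 1.74 CPM (SD, n = 3), 90.7% of the control level (log2 fold change -0.14, SE 0.047, adjusted p = 0.0109). This call depended on the scaling. With library size alone the log2 fold change was -0.08 (adjusted p = 0.108) and with upper quartile normalization -0.05 (adjusted p = 0.327).

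Among the transcription factors, Mef2d (ENSMUSG00000001419; chr3:88142372-88172086, plus strand), the most widely expressed Mef2 factor, changed most. It was at 157, 172 and 161 CPM in control libraries and at 193, 215 and 187 CPM in knockdown libraries. Knockdown library 2 was the highest and knockdown library 3, the lowest of its group, still exceeded every control. The mean rose from 163 ± 7.61 to 198 ± 14.9 CPM (SD, n = 3), 1.21 times the control level (log2 fold change 0.28, SE 0.0515, adjusted p = 7.27e-05). Mef2d shares 531 of 5985 exon bases (8.87%) with the antisense gene 1700113A16Rik, which had 3 to 11 counts per library.

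Mef2a (ENSMUSG00000030557; chr7:67231163-67372858, minus strand), a Mef2 factor of heart and skeletal muscle, was at 99.6, 87.8 and 103 CPM in control libraries and at 119, 96.2 and 112 CPM in knockdown libraries. Library 2 was the lowest of each group, and control and knockdown values overlapped (p = 0.3 in a two-sided exact permutation test). The model put the log2 fold change at 0.17 ± 0.0671 (SE), with an adjusted p of 0.0283. The call was lost when control library 2 was left out (log2 fold change 0.09, adjusted p = 0.232), without knockdown library 1 (0.11, adjusted p = 0.138), without knockdown library 3 (0.16, adjusted p = 0.0799) and with DESeq2 (0.16, adjusted p = 0.0599).

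Mef2c (ENSMUSG00000005583; chr13:83504034-83667080, plus strand), the Mef2 factor of growth plate cartilage, neural crest and heart, showed no call. Control libraries measured 15.1, 16.9 and 16.7 CPM and knockdown libraries 17.4, 15 and 17.9 CPM. The lowest value of all belonged to a knockdown library and so did the highest. The log2 fold change was 0.05 ± 0.0853 (SE), with an adjusted p of 0.629 and a 95% interval from -0.12 to 0.21, which leaves room for small changes either way. Without control library 1 its sign turned (-0.01, adjusted p = 0.897).

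Mef2b (ENSMUSG00000079033; chr8:70139711-70167488, plus strand), the family member of germinal center B cells, was nearly absent. Its counts were 0, 1 and 0 in control libraries and 2, 11 and 0 in knockdown libraries. Knockdown library 2 held 11 of the 13 knockdown counts, and 2 remained without it, below a floor of 3 counts. No change can be read at this depth. Mef2b shares 62 of 1404 exon bases with Borcs8, which was counted 296 to 402 times per library.

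**Figure D2:**
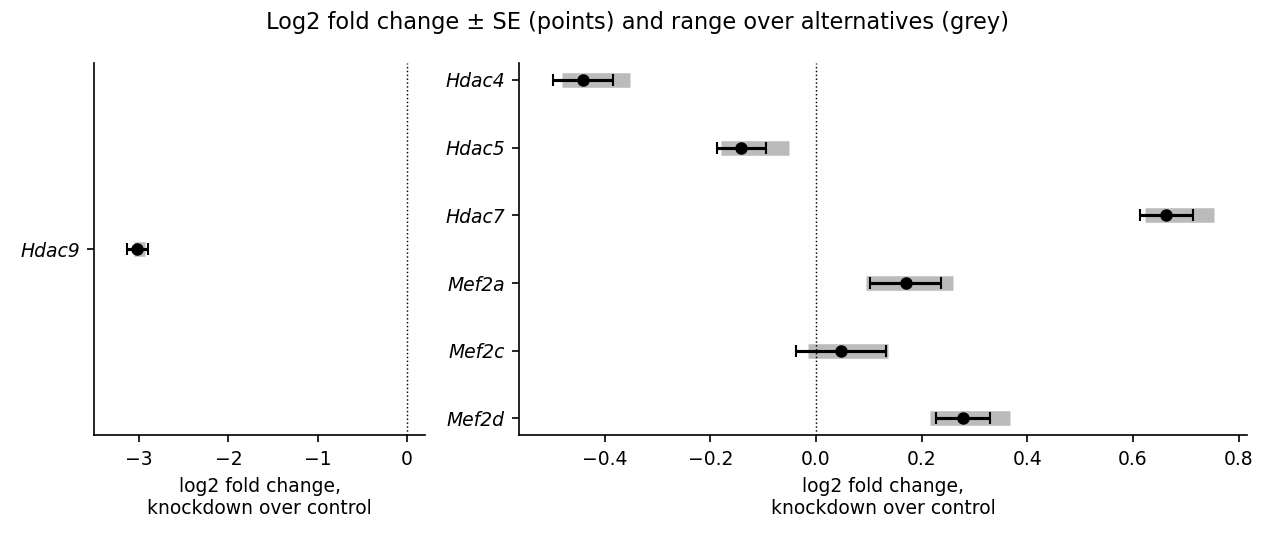
Log2 fold change, knockdown over control, of the 7 tested genes (points, with bars of 1 SE) and the lowest to highest value over the 14 alternatives for each gene (grey bars), with Hdac9 on its own axis. Hdac9 at -3.02 lies far from the other 6 genes, which run from -0.44 for Hdac4 to 0.66 for Hdac7, and only the grey bar of Mef2c crosses 0.

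Levels of different genes were compared per length, as CPM per kilobase of annotated exon. In control libraries Mef2d was highest at 27.3 ± 1.27 CPM per kb (SD, n = 3), followed by Hdac7 at 10.5 ± 0.443 and Hdac5 at 8.5 ± 0.205. Below them came Mef2a at 6.59 ± 0.543 CPM per kb, Hdac4 at 2.55 ± 0.0261 and Hdac9 at 1.15 ± 0.0301. Mef2c closed the order of the expressed genes at 1.03 ± 0.0646 CPM per kb, and Mef2b stood at 0 to 0.0238. The targeted gene was thus the third of the 4 class IIa genes in level, and no neighbors in the order overlapped in the 3 libraries. In knockdown libraries the order was kept at the top, with Mef2d at 33.1 ± 2.49 CPM per kb and Hdac7 at 16.7 ± 0.942. Hdac5 (7.71 ± 0.198 CPM per kb) and Mef2a (7.42 ± 0.79) then overlapped. Hdac9, at 0.141 ± 0.0125 CPM per kb, dropped below Mef2c (1.07 ± 0.0987). Its range overlapped that of Mef2b only through knockdown library 2, where 11 counts put Mef2b at 0.243 CPM per kb. In knockdown libraries 1 and 3 Mef2b was at 0.046 and 0. The order depended on the length used. Per kilobase of the longest transcript, control Mef2a was at 17.5 ± 1.44 CPM per kb (SD, n = 3), above Hdac5 at 13.8 ± 0.332 and Hdac7 at 13.7 ± 0.578, which overlapped each other. Mef2c (2.58 ± 0.162 CPM per kb) then lay above Hdac9 (2.12 ± 0.0556) in control libraries already, whereas Mef2d stayed first and Hdac4 stayed the third of the class IIa genes.

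Per length, the composition of the deacetylase family shifted toward Hdac7. Hdac7 made up 46.3%, 47% and 45.6% of the summed class IIa level in control libraries and 62.1%, 64.1% and 63.3% in knockdown libraries. The share of Hdac5 went from 37.4% ± 0.259 to 29.2% ± 0.459 (SD, n = 3), that of Hdac4 from 11.2% ± 0.296 to 7.11% ± 0.519 and that of Hdac9 from 5.05% ± 0.262 to 0.537% ± 0.0658. For each of the 4 genes the shares of the groups did not overlap, and shares of 1 sum are not independent of each other. The ratio of Hdac4 to Hdac9 went from 2.22 ± 0.074 to 13.3 ± 0.943 (SD, n = 3), as both fell and Hdac9 fell further. The ratio of Hdac7 to Hdac9 went from 9.2 ± 0.616 to 119 ± 17.4. With the longest transcript as length, the share of Hdac7 went from 39.7% ± 0.689 to 56.9% ± 1.13, so that its lead over Hdac5 (39.9% ± 0.228 to 32.8% ± 0.401) appeared in knockdown libraries only.

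The family as a whole did not get smaller. Its sum was 22.6, 23.4 and 22.2 CPM per kb in control libraries and 25.4, 27.5 and 26.3 CPM per kb in knockdown libraries, 1.16 times as much. With the length of the longest transcript in place of all exons the factor was 1.10, and with upper quartile normalization 1.24. The Mef2 sum was 34, 35.8 and 35.1 CPM per kb against 41.4, 43.7 and 40 CPM per kb, 1.19 times as much. No test was made on these sums. The ratio of the class IIa sum to the Mef2 sum was 0.651 ± 0.0159 in control and 0.634 ± 0.0231 in knockdown libraries (SD, n = 3), with overlapping values. Within the Mef2 family, Mef2d held 78.1% ± 1.81 of the sum in control and 79.3% ± 2.54 in knockdown libraries, and Mef2a 18.9% ± 1.89 and 17.9% ± 2.5. With the longest transcript as length these shares were 60.1% ± 2.62 and 62% ± 3.94 for Mef2d and 34.7% ± 2.82 and 33.3% ± 3.71 for Mef2a.

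**Figure D3:**
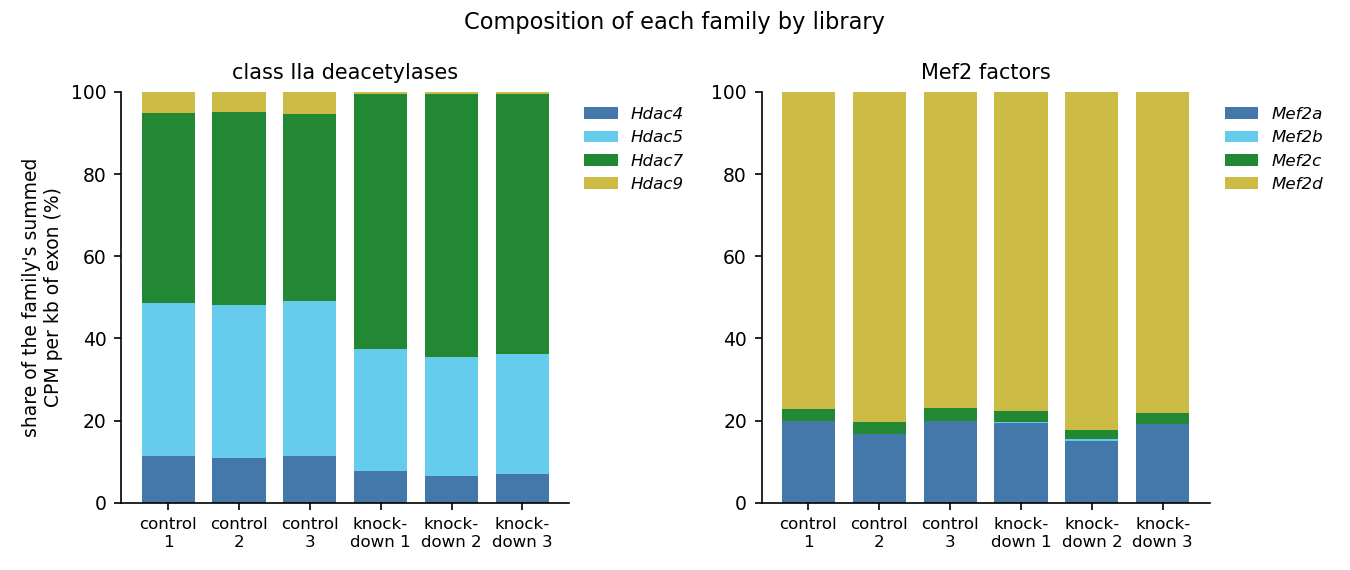
Share of each gene (%) in its family's summed CPM per kb of exon, with 1 stacked bar per library, class IIa deacetylases on the left and Mef2 factors on the right. Hdac7 takes 45.6% to 47% of the class IIa sum in control libraries and 62.1% to 64.1% in knockdown libraries, whereas Mef2d holds 77% to 82.3% of the Mef2 sum in every library when all exons set the length.

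The genes next to each member on the chromosome were compared after the values of Hdac9 had been seen. Hdac9 lies between Twist1 and Snx13, its nearest tested coding genes. Twist1, a bHLH factor of cranial mesenchyme that restrains osteoblast differentiation, lies beyond a gap of 87751 bases. It was counted 52, 64 and 64 times in control libraries and 1052, 1269 and 1072 times in knockdown libraries. The rise from 2.03 ± 0.288 to 36.3 ± 2.76 CPM (SD, n = 3; log2 fold change 4.16, SE 0.107, adjusted p = 1.15e-17) ran opposite to the fall of Hdac9 and separated the groups completely. Snx13, a sorting nexin on the other side at 130091 bases, was counted 2768, 2658 and 2546 times in control libraries and 2057, 1848 and 1887 times in knockdown libraries (log2 fold change -0.53, SE 0.0528, adjusted p = 2.57e-08).

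**Figure D4:**
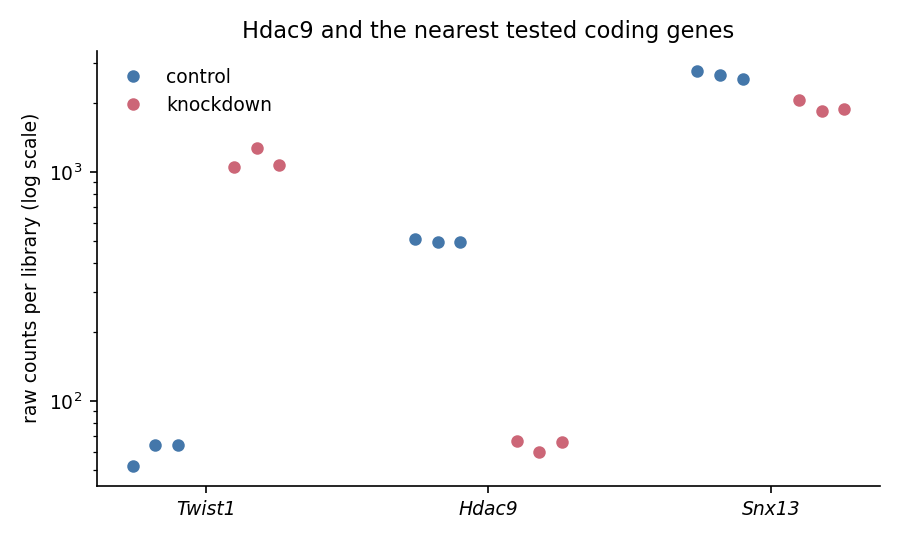
Raw counts per library (log axis) of Hdac9 and of its nearest tested coding genes, with control and knockdown libraries as separate points. Twist1 goes from 52 to 64 counts up to 1052 to 1269, Hdac9 goes from 492 to 510 counts down to 60 to 67, and Snx13 is lower in all knockdown libraries by a smaller step.

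Hdac4 has the related bHLH gene Twist2 beside it, beyond a gap of 80751 bases. Twist2 was counted 111, 98 and 131 times in control libraries and 86, 37 and 77 times in knockdown libraries (log2 fold change -0.83, SE 0.239, adjusted p = 0.00415), so it fell together with Hdac4 while Twist1 rose beside Hdac9. Hdac7 lies 9923 bases from Vdr, the vitamin D receptor gene, which was counted 523, 590 and 567 times in control libraries and 830, 916 and 834 times in knockdown libraries (log2 fold change 0.55, adjusted p = 1.15e-06). Slc48a1, which overlaps the end of Hdac7 and encodes a heme transporter, had a log2 fold change of 0.61 (adjusted p = 5.32e-11). Hdac7, Vdr and Slc48a1 were thus all higher in knockdown libraries, as were 38% of all tested genes. Beside Mef2d, Iqgap3 fell by 1.34 on the log2 scale (adjusted p = 9.67e-15) and Cct3, a chaperonin subunit, was not called at -0.04 (adjusted p = 0.351). Around Hdac5, G6pc3 was not called at -0.00456 (adjusted p = 0.95), and lies only 351 bases away, whereas BC030867, at 18716 bases on the other side, was lower (-0.75, adjusted p = 1.73e-08). Both neighbors of Mef2a were higher, Lysmd4 by 0.53 (adjusted p = 0.000477) and Lrrc28 by 1.08 (adjusted p = 2.06e-09) on the log2 scale. On the far side of Hdac4, Ndufa10 was lower (-0.26, adjusted p = 2.44e-05). Beside Mef2c, Cetn3 was lower (-0.33, adjusted p = 0.000131) and Tmem161b higher (0.63, adjusted p = 6.79e-06). Beside Mef2b, Borcs8 was not called (0.17, adjusted p = 0.0831) and Tmem161a was higher (0.13, adjusted p = 0.0391). The neighbors thus held changes in both directions. So did all tested genes, of which 75.1% were called, 38% higher and 37.1% lower. Whether a neighbor and a member changed together for a shared reason was not tested.

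The promoters were searched for the MEF2 site, the sequence through which these factors are known to act, also after the counts had been seen. The search covered 250 bases before to 50 bases after each RefSeq start (GRCm38.p6) for the MEF2 consensus, searched by its standard definition on both strands. All 8 genes had a promoter entry, 14 in all. Hdac5 and Mef2a each held a match, and the other 6 genes held none. A match occurred in 1001 of 27025 genes (3.7%). The 80 bases around the starts of Hdac5 and Mef2a are shown because a deacetylase gene and a Mef2 gene each hold a match close to the start itself. Both are read on the minus strand, 70 bases before to 10 bases after the start, with the match in capitals. The capitals of Mef2a are the reverse complement of those of Hdac5.
Hdac5, chr11:102230163-102230242: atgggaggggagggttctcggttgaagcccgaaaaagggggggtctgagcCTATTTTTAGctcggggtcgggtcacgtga
Mef2a, chr7:67372849-67372928: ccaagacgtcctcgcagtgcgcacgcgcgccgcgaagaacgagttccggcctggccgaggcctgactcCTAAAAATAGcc
The match begins 20 bases before the start in Hdac5 and 2 bases before it in Mef2a. These were the members with the smallest called changes, Hdac5 at -0.14 and Mef2a at 0.17 on the log2 scale, each of which lost its call under some alternatives. A match of letters is no measurement of binding.

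The genes that act on the class IIa deacetylases and on the Mef2 factors were counted in 7 lists. Of 16 kinases known to phosphorylate class IIa deacetylases, 14 were tested, 6 were higher, 5 lower and 3 not called, and the median log2 fold change was 0.04. Their 78.6% called was close to the 75.1% of all genes. Sik1, a salt-inducible kinase induced by cyclic AMP signaling, fell from 1207, 1199 and 1075 counts in control libraries to 366, 378 and 317 in knockdown libraries (log2 fold change -1.78, SE 0.0705, adjusted p = 1.11e-14). Camk2g (-0.96, adjusted p = 3.8e-13) and the protein kinase D gene Prkd3 (-0.59, adjusted p = 2.76e-10) were lower, as were Camk1d (-0.49) and Sik3 (-0.29). Camk2d, the CaM kinase isoform known to signal to Hdac4, was higher (0.61, SE 0.0462, adjusted p = 3.79e-10), and so were Mark2 (0.29), Camk1 (0.26) and Mark3 (0.19). The CaM kinase gene family thus held changes in both directions. Prkd1 and Camk4 rose from low levels, Prkd1 from 22, 7 and 6 to 203, 169 and 152 counts and Camk4 from 3, 6 and 8 to 33, 18 and 23 counts.

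Among the 14-3-3 proteins, which hold phosphorylated deacetylases in the cytoplasm, and the exportin gene Xpo1, 5 of 8 genes were lower, 1 higher and 2 not called. The median log2 fold change was -0.71, and 75% were called, against 75.1% of all genes. Ywhah (log2 fold change -1.12, adjusted p = 9.9e-16) and Ywhaz (-1.06, adjusted p = 1.26e-15) fell most, and Ywhae (-0.81), Ywhaq (-0.61) and Xpo1 (-0.82, adjusted p = 3.89e-11) were lower too. Ywhab (-0.05, adjusted p = 0.257) and Ywhag (8.26e-05, adjusted p = 0.998) were not called. Sfn, which encodes 14-3-3 sigma, a form of epithelial and stressed cells, ran against the others, from 34, 48 and 40 counts to 429, 504 and 412 (log2 fold change 3.39, SE 0.14, adjusted p = 2.21e-14).

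All 5 phosphatase genes listed for removal of the 14-3-3 binding phosphates were lower (100% called, against 75.1% of all genes). Of all genes 37.1% were called lower. The median of the 5 phosphatase genes was -0.30 on the log2 scale. The catalytic subunit gene Ppp2ca fell from 9236, 9203 and 8722 counts to 5432, 6397 and 5503 (log2 fold change -0.72, SE 0.0449, adjusted p = 1.81e-11), although 39.9% of its exon bases overlap a noncoding gene on the other strand. The scaffold subunit genes Ppp2r1b (-0.36) and Ppp2r1a (-0.30) and the catalytic subunit gene Ppp2cb (-0.24) followed. Exon overlaps also touch Ppp2r1b, with 22.2% of its exon bases shared with Sik2 on the other strand. For Ppp1cb, 17.5% are shared with Gm43312 on the same strand. Ppp1cb (-0.17, adjusted p = 0.00341) lost its call with upper quartile normalization (-0.08, adjusted p = 0.13). Of the 5, only Ppp2ca passed a log2 fold change of 0.5.

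Of 12 corepressor genes, 8 were lower, 2 higher and 2 not called (83.3% called against 75.1% of all genes, median log2 fold change -0.19). Bcor, a corepressor that binds Bcl6, fell from 2617, 2477 and 2345 counts to 954, 984 and 891 (log2 fold change -1.46, SE 0.0507, adjusted p = 1.37e-15). In the complex that gives class IIa proteins their deacetylase activity, Hdac3 (-0.32, adjusted p = 7.24e-06), Ncor1 (-0.24, adjusted p = 3.94e-05) and Gps2 (-0.71, adjusted p = 1.31e-09) were lower. Its subunit genes Tbl1x (0.79, adjusted p = 6.61e-13) and Tbl1xr1 (0.51, adjusted p = 6.09e-07) were higher, so the subunits of 1 complex moved in both directions. Ctbp1 (-0.14) was called lower but not with library size alone or with upper quartile normalization, and Cbx5 (-0.52), the heterochromatin protein HP1 alpha, and Ctbp2 (-0.44) were lower.

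Of 14 genes that activate Mef2 factors, 3 were higher, 7 lower and 4 not called. Thus 71.4% were called, against 75.1% of all genes, and the median log2 fold change was -0.12. Of the calcineurin catalytic genes, Ppp3ca and Ppp3cb moved apart, and Ppp3cc was not called (-0.13, adjusted p = 0.132). Ppp3ca rose from 4178, 4051 and 4176 counts to 14817, 13907 and 13931 (log2 fold change 1.71, SE 0.0467, adjusted p = 2.98e-17), and Ppp3cb fell from 3387, 3355 and 3332 to 2277, 2024 and 1983 (-0.75, SE 0.0542, adjusted p = 1.79e-10). In the p38 kinase arm, Mapk14 (0.44, adjusted p = 3.47e-08) was higher and its activator Map2k6 (-0.61, adjusted p = 0.000474) lower. Map2k3, the other p38 activator in the list, was not called (-0.05, adjusted p = 0.273). It averaged 5100 counts per library, against 148 for Map2k6. The coactivator gene Ncoa2 (0.45, adjusted p = 4.58e-08) was higher, whereas the acetyltransferase gene Kat2b (-0.45, adjusted p = 4.65e-07) was lower. Ep300 (-0.10, adjusted p = 0.0492) was no longer called under any of the other 3 scalings.

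**Figure D5:**
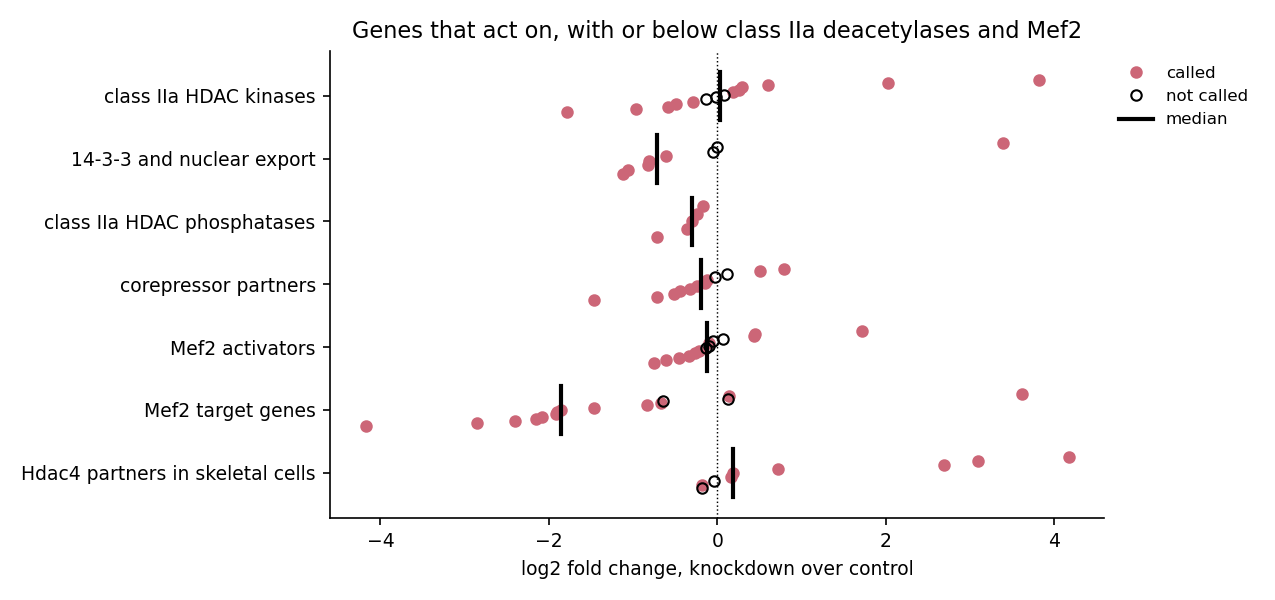
Log2 fold change, knockdown over control, of each tested gene in the 7 lists, with called genes filled, genes without a call open and a vertical bar at the list's median. The median of the Mef2 target genes, whose lower genes are mostly muscle genes, lies at -1.86. Those of the other lists lie between -0.711 and 0.187, and the median over all tested genes is 0.0144.

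The Mef2 target list held 22 genes known from muscle, bone, neurons or immune cells. Of these, 15 were tested, 11 were lower, 2 higher and 2 not called, so that 86.7% were called, against 75.1% of all genes. Of all genes 37.1% were called lower. The list's median log2 change was -1.86, against 0.0144 over all genes. This median fell on a muscle gene, Acta1. Most of the lower genes were muscle genes, namely Ckm, Mb, Des, Myog, Smyd1, Xirp1, Hrc and Acta1. Des, which encodes the muscle intermediate filament desmin, fell from 21898, 22531 and 21142 counts to 2920, 3574 and 3013 (log2 fold change -2.86, SE 0.0516, adjusted p = 4.49e-20). Xirp1, a sarcomere repair protein gene, fell from 373, 316 and 285 counts to 25, 16 and 15 (-4.18, SE 0.182, adjusted p = 5.49e-14), and Myog, the myogenin gene, from 519, 511 and 462 to 117, 159 and 93 (-2.08, SE 0.124, adjusted p = 8.04e-12). In all of these the groups were far apart. Among the called muscle genes of the list, Acta1 changed least, at -1.86. Targets that are not muscle genes changed less and went both ways. Lower were the endothelial and immune factor Klf2 (-1.47, adjusted p = 2.82e-14) and the immediate early genes Arc (-0.84, adjusted p = 0.000961) and Nr4a1 (-0.67, adjusted p = 4.46e-05). Jun was higher by a small step (0.14, SE 0.0423, adjusted p = 0.00516). Bdnf (0.13, adjusted p = 0.142) and Ppargc1a (-0.64, adjusted p = 0.167) were not called. With library size alone or upper quartile normalization, Bdnf was called higher. Col10a1 changed by more than these, but from a very low level. Col10a1, the gene of hypertrophic cartilage collagen that Mef2c is known to drive, had 1 count in each control library and 10, 19 and 14 in knockdown libraries. Slc2a4, Xirp2, Myl2, Myh6, Nppa, Myocd and Sost had too few counts to be tested.

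Skeletal muscle markers fell as well. Myod1, Myog, Myh3, Ckm and Acta1, the 5 skeletal muscle markers, were all called lower, and their summed level went from 163 to 173 CPM in control libraries to 32 to 36.2 CPM in knockdown libraries. Of these 5 markers, Myog, Ckm and Acta1 are also in the target list, so that the sum is not separate from it. Outside the list were Myod1 (log2 fold change -2.92) and Myh3 (-2.52). Hdac9 fell beside them, and the part of the muscle genes in its fall or in that of the target list was not tested. The 8 osteoblast markers together were at 3550 to 3580 CPM in control and 12900 to 13500 CPM in knockdown libraries, but they did not move as one. Col1a1 went from 9695 to 10505 counts up to 326535 to 367071, while Spp1, the larger part of the control sum, went down from 89558 to 97433 counts to 62179 to 65942. The 4 chondrocyte markers were at 125 to 128 CPM in control and 168 to 186 CPM in knockdown libraries, with Acan at 0 in all libraries. Sox9, nearly all of the control sum, had a log2 fold change of 0.02, and Col2a1 went from 18 to 30 counts up to 1495 to 1683. The 4 adipocyte markers were at 27.3 to 29.6 and 3.07 to 4.52 CPM with Adipoq and Plin1 at 3 counts or fewer. Pparg was nearly all of the control sum, and Fabp4 had 8, 8 and 1 counts against 3, 14 and 11. The 4 neuronal markers were at 163 to 167 and 73.4 to 83.8 CPM, which was almost wholly Tubb3, with Snap25 and Rbfox3 at 3 counts or fewer. Syt1 went the other way, from 2, 0 and 4 counts to 56, 43 and 57. The 4 endothelial markers, shown because Hdac7 is known from endothelium, together went from 0.262 to 0.421 CPM to 2.81 to 3.16 CPM. Most of this was Pecam1, from 6, 7 and 6 counts to 72, 75 and 75. Cdh5, Kdr and Tek had at most 10 counts in any library. The 4 macrophage markers were at 1.6 to 2.59 and 2.69 to 3.13 CPM, with Adgre1 at 0. The part of these cell type markers in the members' levels was not tested.

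The last list held 9 partners and targets of Hdac4 in skeletal cells, of which 6 were higher, 1 lower and 2 not called. Thus 77.8% were called, against 75.1% of all genes, and the median log2 fold change was 0.19. Mmp13, the collagenase gene of hypertrophic cartilage and bone that Hdac4 is known to repress, rose from 133, 118 and 139 counts to 1257, 1066 and 1178 (log2 fold change 3.10, SE 0.1, adjusted p = 4.46e-16). Pth1r, the receptor for parathyroid hormone, whose signal acts on Hdac4, went from 4, 4 and 5 counts to 35, 28 and 27 (2.69, adjusted p = 8.72e-06). Among the transcription factors, Runx3 (0.73, adjusted p = 3.39e-10), Sp7 (4.18 from 2 to 7 control counts), Runx2 (0.19, with overlapping groups) and Atf4 (0.16, adjusted p = 0.00104) were higher and Runx1 (-0.04, adjusted p = 0.494) was not called. Srf (-0.18, adjusted p = 0.00396) was lower, without a call under upper quartile normalization, and Pthlh (-0.19, adjusted p = 0.471) was not called. The 6 deacetylase genes of other classes not listed above, Hdac1, Hdac2, Hdac6, Hdac8, Hdac10 and Hdac11, gave 2 higher, 3 lower and 1 without a call. Of all tested genes 38% were called higher and 37.1% lower.

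Likeness of pattern was measured over the 6 libraries as the Euclidean distance between log2 CPM values, each less the gene's control mean, among the 10819 genes whose counts averaged at least 100 per library. For Hdac4 the nearest genes were Rbms1 (distance 0.0406), Mis12 (0.0422) and Jpt2 (0.0447), with log2 fold changes of -0.44 to -0.46. For Hdac9 they were Pde5a (0.0876), a phosphodiesterase gene of muscle cells, Pcdh1 (0.134) and Gm13394 (0.176), with log2 fold changes of -3.04 to -2.99. Gm13394 is a processed pseudogene, whose counts can include reads of its parent gene. These distances are mostly set by the difference between the groups.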

How the data were processed

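Poly-A RNA of 6 MC3T3-E1 samples was sequenced from unstranded, paired-end libraries. The authors deposited raw counts, the reads per Ensembl gene in each library. The submitters' processing notes name STAR 2.7.3a, HTSeq 0.12.4, FastQC and build mm10. The 5 summary lines of each table were left out of all totals. Reads outside genes took 3.17% to 5.07% and reads shared between genes 5.84% to 6.51% of a library's total. Of 53801 identifiers, 53706 (99.8%) matched GENCODE M21, which gave symbols, positions and exon lengths (GRCm38).

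The groups were then set against each other by edgeR's quasi-likelihood test (version 4.0.16, R 4.3.3), after TMM scaling and the default filter of filterByExpr. P-values were adjusted by the Benjamini-Hochberg method over all 14531 tested genes. Means are given with the SD of 3 libraries. Exact permutation tests were two-sided. The common biological coefficient of variation was 4.79%. Replicates differed by more than counting noise (chi-square per degree of freedom 3.38 to 9.15). Without strand, reads of overlapping genes cannot be told apart. Alternatives were 3 other normalizations, 2 filters, DESeq2 1.42.0, limma-voom (limma 3.58.1), the replicate number as a block, a log2 fold change of 0.5, longest transcript lengths and leaving out each library.

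The 8 members, the gene lists and the markers were chosen with earlier results of these data known. Named were all members, the genes overlapping them, up to 3 called genes with the largest and 3 with the smallest log2 fold change per list (at least 100 counts on average, groups not overlapping), counts of 5 or fewer, and the 3 genes most like Hdac4 and the most changed member. Neighbors, promoter matches and some further list genes (among them Hdac3, Ncor1, Klf2, Arc, Nr4a1, Pth1r, Prkd1, Camk4 and Col10a1) were chosen after their values were seen.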

Additional observations from a re-analysis of the deposited data

Results flagged for a closer look

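A signal outside the comparisons appeared in the reads that fell in no annotated gene. They made up 5.07%, 4.64% and 4.66% of knockdown libraries 1 to 3, above the 3.17% to 3.41% of the control libraries. No member's count includes these reads, and their part in the members' values was not tested.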

How the results depend on the processing

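Hdac4, Hdac7, Hdac9 and Mef2d kept direction and call under all 14 alternatives for each gene, with adjusted p-values of at most 1.57e-05, 1.77e-08, 5.17e-12 and 0.00141. Leaving out single libraries gave log2 fold changes of -0.46 to -0.42 for Hdac4, -0.17 to -0.12 for Hdac5, 0.62 to 0.71 for Hdac7, -3.06 to -2.94 for Hdac9, 0.22 to 0.32 for Mef2d, 0.0949 to 0.255 for Mef2a (0.16 with DESeq2) and -0.0147 to 0.124 for Mef2c, the one reversal being -0.0147 without control library 1. Hdac5 lost its call at -0.10 with at least 10 counts in every library (adjusted p = 0.0508), at -0.0841 with library size alone and at -0.0517 with upper quartile normalization. The adjusted p of Hdac5 ranged from 0.00256 to 0.327, that of Mef2a from 0.000199 to 0.232 and that of Mef2c from 0.151 to 0.975. The causes were not tested. Beyond a log2 fold change of 0.5, 1 member was higher and 1 lower, and 3579 genes were higher and 2879 lower (44.4% of those tested). At this threshold the kinases gave 3 higher and 3 lower, and the phosphatases 0 higher and 1 lower. The 14-3-3 and export genes gave 1 higher and 5 lower, and the corepressors 2 higher and 3 lower. The Mef2 activators gave 1 higher and 2 lower, and the skeletal partners 4 higher and 0 lower. The Mef2 targets gave 1 higher and kept 11 lower. Smaller changes no longer counted. Upper quartile normalization, which moved the median of all genes by 0.0892, gave 2 higher genes for 14-3-3 and export, 0 lower skeletal partners and summed levels of 1.24 (class IIa) and 1.27 (Mef2) times the control, and longest transcript lengths gave 1.10 for class IIa and changed the order of levels between genes. The Mef2 targets had 1 higher gene with at least 10 counts in every library, and 1 to 2 when single libraries were left out (1 without control library 3 or knockdown library 2). Of 98 alternatives for the members' fold changes 90 changed neither direction nor call. Of 270 alternatives for counts 253 were rated the same, and of 20 for sums 17, a rating that allowed some change in size. Members called higher with DESeq2 (2 against 3) were rated the same. So were all genes called higher with upper quartile normalization (6316 against 5521).

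The labels give both groups the numbers 1 to 3 but do not say that a number marks a shared batch. Same-numbered libraries correlated at -0.0111, 0.027 and 0.0166 in their deviations from the group means, and 3 of 6 libraries correlated best with their own number. With the replicate block, 3 members were called higher and 3 lower, Mef2a had a log2 fold change of 0.17 (adjusted p = 0.0013), and 5523 genes were higher and 5441 lower. Depth limited only Mef2b among the members, where 3 libraries against 3 and counts of 0 to 11 allow no statement.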
